A study of Rattus norvegicus with 9 samples.

Results

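The miRNAs described here come from the imprinted Dlk1-Dio3 locus of the rat. They were chosen by name alone: every listed rat miRNA carrying one of the numbers known for this locus, from either arm of its hairpin, that had at least 1 read in any library. Of 83 names that matched, 5 were at 0 in every library, which left 78 miRNAs of the 765 in the table. Small RNA was sequenced from rat corneas in 3 groups of 3 libraries: normal cornea, isograft cornea and allograft cornea. All 9 libraries are labelled Wistar, a laboratory stock, and 6 weeks of age, and the labels name no gene alteration and no drug. By the usual meaning of the words, an isograft comes from a genetically matched donor and an allograft from a differing one; the donor strain, the time since surgery and the state of the grafts are not in the labels. Each library is called here by its group and its title number, 12, 34 or 56. Whether each library stands for its own animal, or for several pooled, is not stated, so the p-values cover the spread between libraries, part or all of which may be technical.

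At the Dlk1-Dio3 locus the chromosomes from father and mother are used differently. The protein-coding genes Dlk1, Rtl1 and Dio3 are expressed from the paternal copy, while the long noncoding RNAs that begin with Meg3 and the miRNAs beyond it are expressed from the maternal copy. Several hairpins (those of miR-431, miR-433, miR-127, miR-434 and miR-136) lie antisense to Rtl1 and can direct cleavage of its mRNA. A long run of hairpins further on, which starts at miR-379, is cut from shared primary transcripts. These miRNAs are known for high levels in embryo, placenta, brain and mesenchymal cells and for lower levels in most adult tissues. The 78 miRNAs map to 43 of the 59 hairpins that lie between Dlk1 and Dio3 in the RefSeq gene table of assembly GRCr8. Only the order of the hairpins was taken from it, since the authors' values rest on assembly rn6.

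Mature sequences of 76 of the 78 were found in RefSeq (GRCr8). They are written 5′ to 3′, with the seed, bases 2 to 8, in capitals, because the seed largely decides which mRNAs a miRNA pairs with. The first set shows miRNAs from the hairpins inside Rtl1, among them the most abundant one of the locus.
miR-127-3p: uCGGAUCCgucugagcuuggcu
miR-434-3p: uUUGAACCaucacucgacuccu
miR-434-5p: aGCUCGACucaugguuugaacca
miR-136-3p: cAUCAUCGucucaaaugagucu
miR-433-3p: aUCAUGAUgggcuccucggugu

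The second set shows miRNAs from the distal run, from miR-379 on, whose values in every library are given below, and miR-539-3p, which was too scarce to test and is shown for its shared seed.
miR-379-5p: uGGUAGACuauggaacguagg
miR-379-3p: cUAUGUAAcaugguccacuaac
miR-411-5p: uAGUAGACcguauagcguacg
miR-411-3p: uAUGUAACacgguccacuaa
miR-329-5p: aGAGGUUUucugggucucuguuuc
miR-329-3p: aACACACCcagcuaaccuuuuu
miR-381-3p: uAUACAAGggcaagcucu
miR-539-3p: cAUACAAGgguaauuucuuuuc
miR-382-5p: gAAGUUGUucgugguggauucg
miR-382-3p: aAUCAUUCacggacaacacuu
miR-134-5p: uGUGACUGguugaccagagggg
miR-541-5p: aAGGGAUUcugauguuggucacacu
miR-409a-5p: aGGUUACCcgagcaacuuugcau
miR-409a-3p: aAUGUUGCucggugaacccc

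The third set lies between Rtl1 and the distal run.
miR-341: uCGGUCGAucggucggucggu
miR-370-3p: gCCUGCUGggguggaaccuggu

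Within the locus the miRNAs printed above each had a seed of their own, apart from miR-381-3p and miR-539-3p, which share AUACAAG. Outside the locus, miR-329-3p shares its seed with miR-362-3p. The abundant miR-379-5p and miR-411-5p, from neighbouring hairpins, match at bases 3 to 8 (GUAGAC). Their other arms, miR-379-3p and miR-411-3p, differ at 1 position over 20 aligned bases, and miR-300-3p and miR-381-3p differ at 1 position over 18. How reads were split between the members of such pairs is not known, so the separate values of these 4 miRNAs are uncertain to that degree. miR-299a-3p and miR-299b-3p match over all 17 aligned bases; almost all reads were listed under miR-299a-3p, and miR-299b-3p had a mean of 0.0101 RPM.

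Values are RPM, reads scaled to the total of each library. The totals ran from 11001459 to 12153889 reads, so 3 reads correspond to 0.247 to 0.273 RPM. A miRNA was tested if it reached 5 RPM in 3 or more libraries; 281 of 765 did, among them 28 of the 78. Of these 28, 20 were at 5 RPM or above in all 9 libraries and 6 never reached it in an allograft. Markers of the corneal epithelium, miR-184 among them, were all detected (12 of 12) and summed to between 274968 and 425400 RPM in normal corneas, between 162160 and 197808 in isografts and between 38193.5 and 92918 in allografts. The 6 leukocyte markers, all detected, summed to between 58.1 and 70.3 RPM, between 171 and 345, and between 2350 and 4096 in the same order. Of the smaller lists, markers of muscle (3 of 3 tested) and of lens, iris and pigment epithelium (3 of 3 tested) fell in allografts against normal corneas, with medians of -1.42 and -2.05, and those of endothelium rose (2 of 2 tested, median 3.16). In the same comparison 1 of 4 neuron markers tested fell (median -0.19) and 1 of 2 red blood cell markers tested fell (median -1.83). The part of these shifts in the results below was not tested. In bulk tissue fewer cells of a type and less RNA per cell cannot be told apart.

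The summed level of the 78 miRNAs overlapped between normal corneas and isografts and was lowest in allografts. In normal corneas the sum was 3031, 2696 and 5167 RPM in libraries 12, 34 and 56. In isografts it was 2872, 2835 and 3240 RPM. In allografts it was 1264, 992 and 1386 RPM, below every library of the other groups. The mean was 3631 RPM ± 1340 in the normal group, 2982 ± 224 in the isograft group and 1214 ± 202 in the allograft group (SD, n = 3 for each), so that allografts stood at 0.334 of normal corneas and 0.407 of isografts. No test was made of this sum. All listed miRNAs together took 57.6% ± 9.85 of the reads of normal corneas, 46.7% ± 9.03 of those of isografts and 35.6% ± 10.04 of those of allografts, so the sum was also set against the listed miRNAs alone. On that scale it was 0.637% ± 0.220 in the normal group, 0.654% ± 0.130 in the isograft group and 0.349% ± 0.0431 in the allograft group, and the ratio of allografts to normal corneas was 0.547. The lowest normal library, at 0.411% (95% exact binomial interval 0.407 to 0.416, which covers counting error only), was above the highest allograft library, at 0.375% (0.368 to 0.382).

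**Figure D1:**
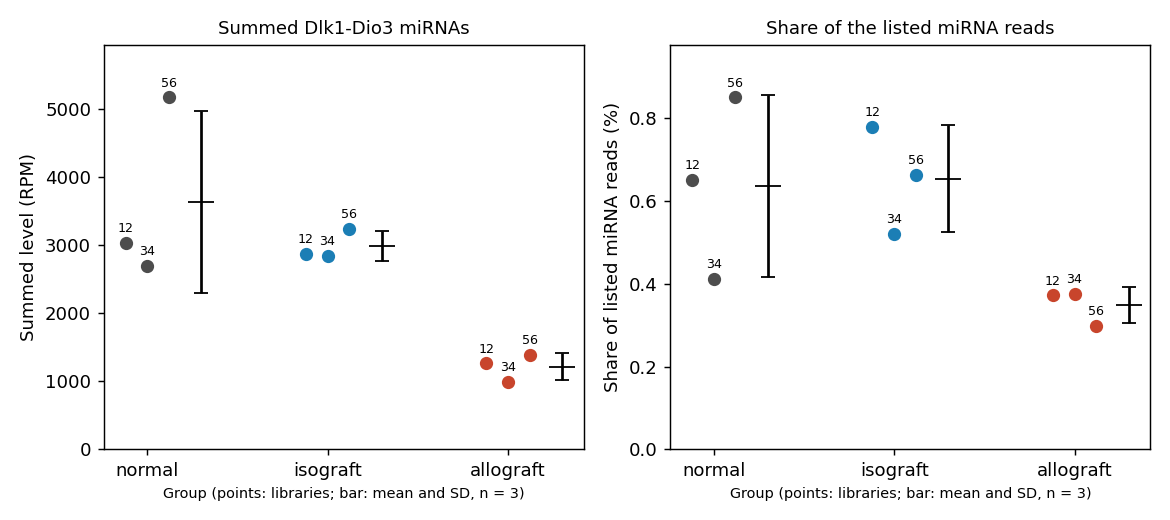
Summed level of the 78 Dlk1-Dio3 miRNAs in each library, in RPM (left) and as a percentage of all listed miRNA reads (right). Points are libraries with their numbers, and bars give the mean and SD of 3 libraries; the 3 allografts lie lowest on both scales, and normal 56 lies highest.

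A single miRNA, miR-127-3p, made up much of this sum. It held 52.2% ± 0.631 of the reads of the locus in the normal group, 55.0% ± 5.46 in the isograft group and 48.1% ± 2.73 in the allograft group. The isograft mean was raised by library 12, at 61.2% (95% exact binomial interval 60.7 to 61.7), against 52.5% and 51.1% in the other isografts. Without miR-127-3p the remaining miRNAs summed to 1731 RPM ± 624, 1348 ± 234 and 631 ± 114 in the same order of groups, so the low sum of the allografts was seen without this miRNA too.

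Most of the miRNAs tested were lower in allografts than in normal corneas. Of the 28 miRNAs tested 21 fell in allografts and 0 rose (limma on log2(RPM + 1), Benjamini-Hochberg adjusted p under 0.05 over the 281), where 24.2% of all 281 miRNAs were called lower and 23.1% higher. At an unadjusted p under 0.05 it was 26 lower and 0 higher, where 154 of all 281 passed in either direction. With count tests on recovered reads 25 (edgeR) and 27 (DESeq2) were lower and 0 higher. Of all 281 those tests called 31.7% and 32.7% lower and 37.4% and 36.7% higher. The log2 fold changes of the 28 ran from -1.78 to -0.44 with a median of -1.39, beside a median of -0.14 over all 281. On the scale of the listed miRNAs alone 16 fell, and the medians were -0.72 for the 28 and 0.54 for all 281. In 25 of the 28 every allograft lay below every normal cornea, which held for 30.2% of all miRNAs tested; the groups overlapped for miR-493-5p, miR-433-3p and miR-341. Of the 21 calls 15 held in every alternative in which the miRNA could be tested. Since a miRNA could reach 5 RPM through the normal corneas alone, these counts describe the 28 tested and not the locus as a whole; without that limit, 26 of all 78 fell and 0 rose, where 13.5% of 606 miRNAs fell and 17.2% rose.

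Among the hairpins antisense to Rtl1, the most abundant miRNA was miR-127-3p. It was at 1593, 1388 and 2719 RPM across the normal corneas, 1758, 1489 and 1657 across the isografts and 646, 469 and 636 across the allografts. The allografts did not overlap with either of the other groups, which overlapped with each other. Its log2 fold change in allografts against normal corneas was -1.65 (SE 0.34, limma adjusted p = 0.000255). The rarer arm, miR-127-5p, was at 24.4, 19.99 and 43.3 RPM across the normal corneas, 20.98, 24.6 and 31.4 across the isografts and 12.4, 10.2 and 19.7 across the allografts. It fell, with a log2 fold change of -0.98 and an adjusted p of 0.0482, and this call was lost in 8 of 23 alternatives (adjusted p from 0.00121 to 0.377).

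miR-434-3p, the second of these antisense miRNAs in abundance, was at 138, 121 and 231 RPM across the normal corneas, 98.2, 116 and 152 across the isografts and 46.6, 43.3 and 72.1 across the allografts. Every allograft was below every other library, and it fell against normal corneas (log2 fold change -1.56, SE 0.39, limma adjusted p = 0.00145). Its other arm, miR-434-5p, was at 28.3, 26.7 and 47.3 RPM across the normal corneas, 27.1, 38.9 and 38.1 across the isografts and 19.2, 16.8 and 18.9 across the allografts. The allografts were again lowest, but the difference of -0.82 did not pass (adjusted p = 0.0807), though it passed in 5 of 23 alternatives. miR-136-3p was at 38.5, 40.97 and 65.8 RPM across the normal corneas, 19.6, 28.3 and 39.6 across the isografts and 16.3, 12.99 and 25.5 across the allografts, so that isografts lay between the other groups and overlapped with both. It fell in allografts (log2 fold change -1.37, SE 0.41, adjusted p = 0.00643), a call lost without normal 56 (adjusted p from 1.49e-07 to 0.0588 over 23 alternatives). Its other arm, miR-136-5p, at 14.6, 9.18 and 16.2 RPM across the normal corneas, 5.84, 10.4 and 11.4 across the isografts and 5.72, 6.09 and 8.54 across the allografts, had a difference of -0.86 that did not pass (adjusted p = 0.0601). That difference passed in 11 of 23 alternatives (adjusted p from 0.00369 to 0.515). The scarce miR-433-3p, at 3.09, 2.18 and 6.995 RPM across the normal corneas, 5.51, 5.82 and 7.54 across the isografts and 1.64, 1.82 and 2.27 across the allografts, overlapped between normal corneas and allografts and did not pass there (-0.699, adjusted p = 0.0993). Its fall passed in 5 of 22 alternatives.

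The distal run opens with miR-379 and miR-411, whose 5p arms were the most abundant miRNAs of the locus after miR-127-3p. miR-379-5p was at 489, 449 and 869 RPM across the normal corneas, 402, 426 and 511 across the isografts and 226, 183.6 and 223 across the allografts. It fell in allografts against normal corneas (log2 fold change -1.45, SE 0.36, limma adjusted p = 0.00134), with no overlap. Its partner arm miR-379-3p was at 19.8, 18.5 and 34.2 RPM across the normal corneas, 10.8, 16.6 and 21.5 across the isografts and 5.54, 4.27 and 9.18 across the allografts. It had the largest fall among the 28 (log2 fold change -1.78, SE 0.400, adjusted p = 0.000563). miR-411-5p was at 201, 191 and 336 RPM across the normal corneas, 84.6, 146 and 186 across the isografts and 71.97, 63.4 and 122 across the allografts. Its isografts all lay below its normal corneas, and isograft 12 lay within the range of the allografts; it fell in allografts (log2 fold change -1.499, SE 0.400, adjusted p = 0.00265). miR-411-3p was at 30.7, 26.7 and 54.96 RPM across the normal corneas, 18.3, 35.8 and 37.6 across the isografts and 10.6, 9.63 and 17.2 across the allografts, and fell in allografts (log2 fold change -1.48, SE 0.41, adjusted p = 0.00389).

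Further along this run lie miR-329, miR-382 and miR-134, of which miR-134 is known in neurons for restraining the growth of dendritic spines. miR-382-5p was at 28.1, 23.9 and 44.7 RPM across the normal corneas, 29.5, 30.4 and 29.2 across the isografts and 6.27, 8.996 and 12.2 across the allografts, and fell in allografts (log2 fold change -1.705, SE 0.39, limma adjusted p = 0.000692). miR-382-3p was at 29.1, 25.7 and 46.1 RPM across the normal corneas, 27.2, 27.8 and 34.7 across the isografts and 14.99, 8.54 and 15.8 across the allografts, and fell (log2 fold change -1.29, SE 0.39, adjusted p = 0.00778), a call lost without normal 56, without allograft 34 and on the scale of the listed miRNAs (adjusted p from 2.7e-05 to 0.0671 over 23 alternatives). In both arms the isografts lay within the range of the normal corneas and the allografts below it. miR-134-5p was at 80.5, 82.1 and 139 RPM across the normal corneas, 68.9, 69.5 and 84.04 across the isografts and 36.3, 27.5 and 32.5 across the allografts, and fell (log2 fold change -1.58, SE 0.38, adjusted p = 0.00114). miR-329-5p was at 5.99, 4.82 and 8.72 RPM across the normal corneas, 5.02, 9.54 and 6.996 across the isografts and 1.82, 1.18 and 2.27 across the allografts, and fell (log2 fold change -1.43, SE 0.35, adjusted p = 0.00119). miR-329-3p, at 6.45, 4.18 and 11.1 RPM across the normal corneas, 6.25, 6.09 and 5.81 across the isografts and 1.82, 1.999 and 3.09 across the allografts, fell (log2 fold change -1.25, SE 0.35, adjusted p = 0.00421), a call lost without normal 56 and on the scale of the listed miRNAs (adjusted p from 0.000113 to 0.064 over 23 alternatives). At these low levels each library held few reads of either miR-329 arm, yet no allograft overlapped with any other library.

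Near the end of the run, miR-541-5p was at 71.8, 56.8 and 124 RPM across the normal corneas, 80.5, 78.99 and 78.6 across the isografts and 27.99, 24.2 and 24.7 across the allografts. The isografts were close to one another and so were the allografts, with no overlap between these groups, and it fell in allografts against normal corneas (log2 fold change -1.604, SE 0.39, limma adjusted p = 0.00114). miR-409a-3p was at 14.4, 12.99 and 28.7 RPM across the normal corneas, 31.6, 28.8 and 25.99 across the isografts and 10.4, 6.54 and 8.63 across the allografts, and fell in allografts (log2 fold change -0.98, adjusted p = 0.0398), a call lost in 8 of 23 alternatives (adjusted p from 0.00403 to 0.4). miR-409a-5p, at 11.2, 7.81 and 21.3 RPM across the normal corneas, 15.6, 19.5 and 20.4 across the isografts and 6.91, 6.36 and 6.54 across the allografts, had a difference of -0.82 that did not pass (adjusted p = 0.0815). That difference passed in 7 of 23 alternatives. For both arms the isografts were the highest group by mean.

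Between Rtl1 and the distal run, miR-370-3p was at 8.35, 10.1 and 16.8 RPM across the normal corneas, 13.0, 13.998 and 13.99 across the isografts and 4.45, 3.54 and 3.73 across the allografts. It fell in allografts (log2 fold change -1.33, SE 0.36, limma adjusted p = 0.00318), with no overlap. miR-341 had the smallest difference of the 28 between these groups, at 5.54, 7.09 and 11.99 RPM across the normal corneas, 6.91, 9.54 and 13.9 across the isografts and 5.91, 4.36 and 6.45 across the allografts. Its normal corneas overlapped with both kinds of graft, and the difference between allografts and normal corneas was -0.44 (95% interval -1.21 to 0.33, adjusted p = 0.353). The other falls past the threshold were those of miR-299a-3p (-1.54), miR-376c-3p (-1.54), miR-337-5p (-1.46), miR-381-3p (-1.41) and miR-494-3p (-1.14). The call of miR-494-3p was lost without normal 56, without allograft 12 and on the scale of the listed miRNAs (adjusted p from 0.000112 to 0.184 over 23 alternatives).

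**Figure D2:**
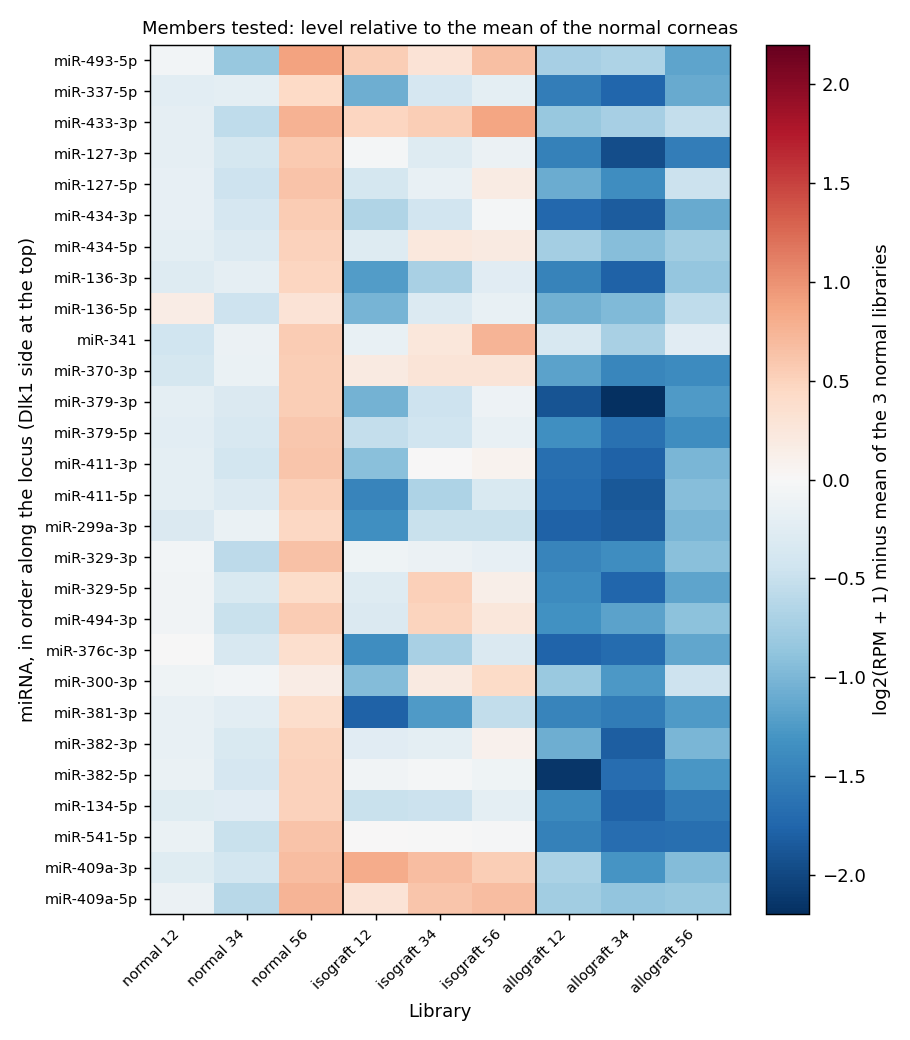
Level of the 28 miRNAs tested in each of the 9 libraries, as log2(RPM + 1) minus the mean of the 3 normal libraries, in the order of their hairpins along the locus with the Dlk1 side at the top. Blue is lower and red higher than the normal mean; the 3 allograft columns are blue in all 28 rows, and normal 56 is the reddest normal library.

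Falls in allografts were seen in each stretch of the locus. By position, 15 of 17 miRNAs of the distal run fell, with a median of -1.45, 4 of 7 inside Rtl1, with a median of -0.98, and 2 of the other 4, which flank Rtl1, with a median of -1.09. Of all 281 miRNAs 24.2% were called lower, with a median of -0.14. Both arms of some hairpins are counted here, and differences between these stretches were not tested.

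Among the normal corneas 1 library stood apart. Normal 56 was the highest of the 3 for all 28 miRNAs, at a median of 1.41 times the group mean, while normal 34 was the lowest for 21. Ranks of this kind were not counted over all 281 miRNAs for any group. The sums of the epithelial markers (384885 RPM) and of the 9 stromal and fibroblast markers (11724 RPM) of normal 56 lay between those of the other normal corneas. So did its leukocyte (59.9 RPM) and neuron (315 RPM) sums. Beside normal 12 and 34, its sum was highest for the lens, iris and pigment epithelium markers (6743 RPM, against 4879 and 6564). The same held for the red blood cell markers (343 RPM, against 313 and 82.4). Its sum was lowest for the muscle (243 RPM, against 323 and 283) and endothelial markers (346 RPM, against 857 and 349.5). The part of these markers in the high values of normal 56 was not tested. Without normal 56, 15 of the 28 fell in allografts, against 16.4% of all 281, and the median was -1.14. In RPM, allograft 34 was the lowest allograft for 21 of the 28 miRNAs. Without it 18 of the 28 fell, against 17.1% of all 281. Listed miRNAs took 26.4% of the reads of allograft 34, against 33.9% and 46.3% in allografts 12 and 56. On the scale of the listed miRNAs alone, its sum of the 78 was the highest of the allografts (0.375%, against 0.372% and 0.299%). Its 4 red blood cell markers summed to 1068 RPM, against 19.7 and 18.5 in the other allografts, and their part in its low values was not tested.

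Few differences between isografts and normal corneas passed the test. Of the 28 miRNAs 1 fell in isografts and 0 rose (limma, adjusted p under 0.05), where 4.63% of all 281 miRNAs were called lower and 16.7% higher. At an unadjusted p under 0.05 it was 3 lower and 0 higher, where 80 of all 281 passed in either direction. The log2 fold changes ran from -1.19 to 0.68 with a median of -0.13, beside 0.05 over all 281. Group means placed isografts between the other groups for 19 of the 28 miRNAs and highest for the other 9. This order was not counted over all 281 miRNAs. The number of miRNAs called was not the same in every analysis. With other scalings 7 fell (median of ratios, 17.4% of all 281 lower) or 3 fell (RPM computed without miR-184, 7.86% of 280 lower). With the count tests, which differ in scaling and in model, 7 (edgeR, 16% of all 281 lower) and 8 (DESeq2, 18.1%) fell. On the scale of the listed miRNAs alone 1 fell and 2 (miR-433-3p and miR-409a-3p) rose, where 5.34% of all 281 were lower and 38.1% higher. The median turned to 0.16 on that last scale and to 0.12 without normal 56.

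The miRNA that fell was miR-381-3p, at 6.36, 5.996 and 9.72 RPM across the normal corneas, 1.399, 2.45 and 4.63 across the isografts and 1.999, 1.82 and 2.45 across the allografts. Isografts and allografts overlapped, and both lay wholly below the normal corneas. The log2 fold change in isografts was -1.19 (SE 0.35, limma adjusted p = 0.0121), and it did not pass without normal 56 or without the limit of 5 RPM (adjusted p from 8.92e-05 to 0.107 over 22 alternatives). It is also the single miRNA of the 28 that reached 5 RPM in 1 group alone, the normal corneas, so its place among those tested rests on the group where it was high. Its near copy miR-300-3p, at 26.3, 27.2 and 31.7 RPM across the normal corneas, 14.2, 32.5 and 38.1 across the isografts and 15.6, 11.2 and 20.4 across the allografts, had a difference of -0.12 in isografts (adjusted p = 0.889). The 7 miRNAs called lower by the median of ratios and by both count tests were miR-381-3p, miR-376c-3p, miR-411-5p, miR-299a-3p, miR-136-3p, miR-337-5p and miR-379-3p; DESeq2 added miR-136-5p.

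For the abundant miRNAs the 95% interval of the difference between isografts and normal corneas was wide. It ran from -0.86 to 0.55 for miR-127-3p, from -1.11 to 0.36 for miR-379-5p and from -1.17 to 0.41 for miR-434-3p. It ran from -1.17 to 0.39 for miR-134-5p and from -0.799 to 0.78 for miR-541-5p. For miR-411-5p it ran from -1.64 to -0.00622, wholly on the side of lower isografts, and the limma adjusted p was 0.172. The less abundant miR-382-5p had an interval from -0.87 to 0.73. For each miRNA, a difference anywhere inside its interval is not excluded by these libraries. In RPM, isograft 12 was the lowest isograft for 22 of the 28 miRNAs although its miR-127-3p was the highest of the 3. Listed miRNAs took 36.8% of its reads, against 54.5% and 48.8% in isografts 34 and 56. On the scale of the listed miRNAs alone, its sum of the 78 was the highest of the isografts (0.780%, against 0.520% and 0.664%).

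**Figure D3:**
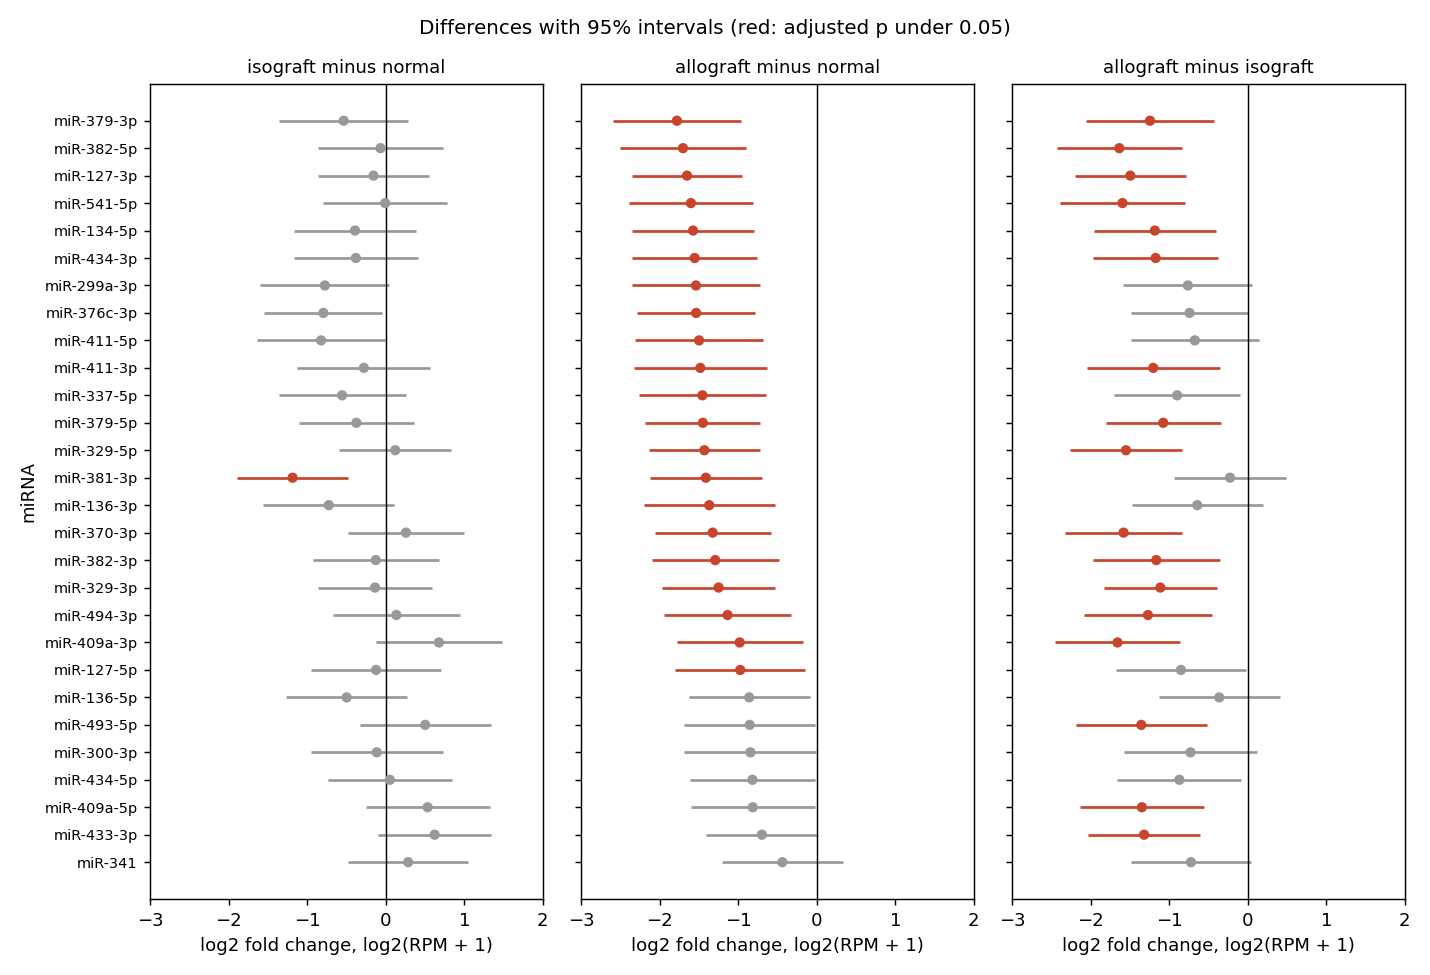
Log2 fold changes on log2(RPM + 1) of the 28 miRNAs tested, in 3 panels for isograft minus normal, allograft minus normal and allograft minus isograft; points are limma estimates and lines their 95% intervals. Red marks an adjusted p under 0.05; 1, 21 and 17 miRNAs are red in the 3 panels, all of them below 0.

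Allografts and isografts, which differ by name in the match of the donor, were also set against each other. Of the 28 miRNAs 17 were lower in allografts and 0 higher (limma, adjusted p under 0.05), where 21% of all 281 were called lower and 13.5% higher. At an unadjusted p under 0.05 it was 20 lower and 0 higher, where 125 of all 281 passed in either direction. On recovered reads 22 (edgeR) and 23 (DESeq2) were lower and 0 higher, where these tests called 31.3% and 32.7% of all 281 lower. The median log2 fold change was -1.17, in a range from -1.66 to -0.23, beside -0.29 over all 281. In 21 of the 28 the allografts lay wholly below the isografts, against 22.4% of all miRNAs tested. The count was 26 without isograft 12, 11 without isograft 56 and 9 without allograft 12 or without allograft 34. The share of all 281 called lower moved as well, to 40.6%, 13.2%, 10.7% and 7.12% in these 4 settings. Of the 17 calls 8 held in every alternative in which the miRNA could be tested.

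The largest of these differences was that of miR-409a-3p at -1.66 (SE 0.39, limma adjusted p = 0.00201). It was followed by miR-382-5p at -1.64 (adjusted p = 0.00217), miR-541-5p at -1.596 (adjusted p = 0.00238), miR-370-3p at -1.58 (adjusted p = 0.00153), miR-329-5p at -1.55 (adjusted p = 0.00123) and miR-127-3p at -1.496 (adjusted p = 0.00165). These 6 calls held in every alternative in which the miRNA could be tested. miR-493-5p (-1.36), miR-409a-5p (-1.35) and miR-433-3p (-1.32) passed here and not against normal corneas. Both comparisons share the allografts, and for these 3 the isograft mean was the highest of the groups. In the other direction, 7 miRNAs were lower in allografts than in normal corneas but did not pass against isografts: miR-411-5p (-0.67), miR-376c-3p (-0.74), miR-299a-3p (-0.76), miR-136-3p (-0.64), miR-337-5p (-0.901), miR-127-5p (-0.85) and miR-381-3p (-0.23). In the reported analysis 14 miRNAs passed in both comparisons and 4 in neither (miR-136-5p, miR-300-3p, miR-341 and miR-434-5p). How many of all 281 passed in both was not counted. Against normal corneas these 4 passed in 11, 6, 0 and 5 of 23 alternatives, in that order.

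Both arms were abundant enough to test for 8 hairpins. The balance of the arms compares 2 miRNAs within a library, so it does not move with the scaling. The 5p arm took 96.1% ± 0.0917 of the reads of miR-379 in the normal group, 96.5% ± 0.758 in the isograft group and 97.1% ± 0.936 in the allograft group. Of the reads of miR-127 it took only 1.499% ± 0.0752, 1.56% ± 0.347 and 2.34% ± 0.590. For miR-382 the arms were nearly even, at 48.9% ± 0.612, 49.96% ± 3.72 and 41.4% ± 11.1, where allograft 12 stood low at 29.5% (95% exact binomial interval 23.7 to 35.8). The 5p share of miR-434 was 17.4% ± 0.605 in the normal group, 22.3% ± 2.56 in the isograft group and 25.9% ± 4.54 in the allograft group. Its lowest graft, isograft 56 at 20.1% (18.4 to 21.9), was above its highest normal cornea, normal 34 at 18.1% (16.2 to 20.04), although these intervals overlapped. The 5p share of miR-411 was 86.8% ± 0.887 in the normal group and 87.2% ± 0.424 in the allograft group but 81.9% ± 1.46 in the isograft group. Its highest isograft, at 83.2% (81.6 to 84.6), lay below its lowest normal cornea, at 85.9% (84.9 to 86.96). The nearly alike miR-379-3p and miR-411-3p enter the shares of miR-379 and miR-411. How reads were split between them is not known, and the intervals do not cover it. The shares were not tested, since an exact test of 3 libraries against 3 cannot give a p below 0.1.

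**Figure D4:**
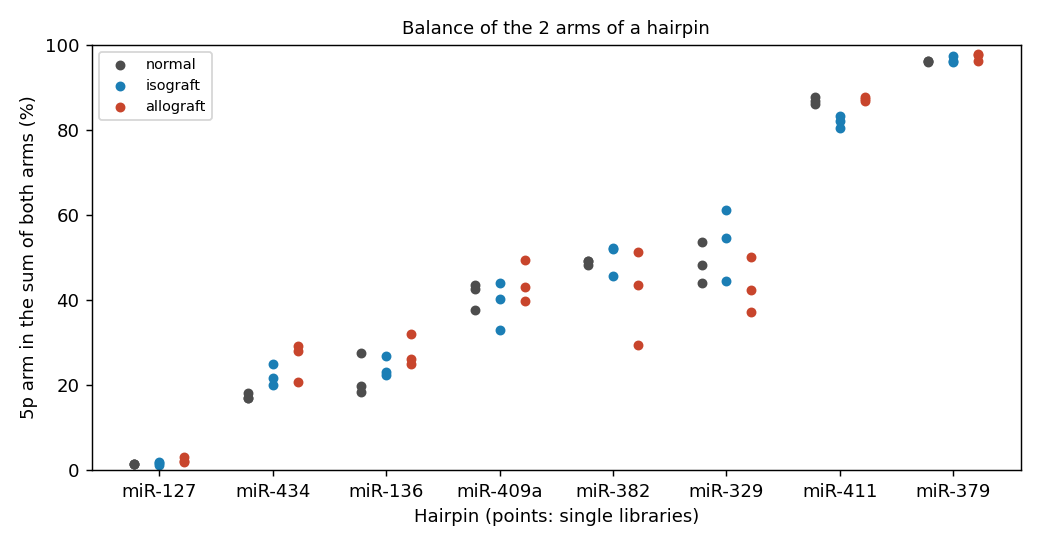
Share of the 5p arm in the sum of both arms, in percent, for the 8 hairpins with both arms tested; each point is 1 library, coloured by group. For miR-434 the 3 normal corneas lie below all grafts, and for miR-411 the 3 isografts lie below all other libraries.

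The other 50 miRNAs of the locus were too scarce for the limit of 5 RPM, with means from 0.0101 to 3.93 RPM over the 9 libraries. Of these, 18 had a mean of at least 1 RPM. In 37 of the 50 the mean was lower in allografts than in normal corneas, and in 28 it was higher in isografts than in normal corneas. These counts include 15 miRNAs with under 10 reads over all 9 libraries together, some of them, such as miR-300-5p, with 1 read in all. The same counts were not made over the other scarce miRNAs listed. In the fit without a limit, 7 of the 50 fell in allografts against normal corneas, where 13.5% of all 606 miRNAs in that fit fell, so this share was near the background. In allografts against isografts 9 of the 50 were lower, against 11.1% of the 606, and in isografts against normal corneas 1 of the 50 rose, against 9.41%. The 1 that rose was miR-668, with 5, 2 and 6 reads across the normal corneas, 19, 16 and 15 across the isografts and 4, 2 and 5 across the allografts. All of its isografts lay above all other libraries, and its log2 fold change in isografts was 0.83 (SE 0.15, limma adjusted p = 0.00131), on a scale that understates the change of such scarce miRNAs. miR-485-5p, with 41, 29 and 67 reads across the normal corneas, 43, 36 and 48 across the isografts and 11, 10 and 15 across the allografts, was lower in allografts than in both other groups. The antisense miR-431, which had the highest mean of the 50, was at 2.996, 2.91 and 3.54 RPM across the normal corneas, 4.36, 5.73 and 5.81 across the isografts and 2.82, 2.91 and 4.27 across the allografts, so that normal corneas and allografts overlapped.

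Beside the miRNAs chosen, 21 further names in the table belong to hairpins between Dlk1 and Dio3, of which 1 was abundant enough to test. This was miR-1193-3p, at 8.90, 7.18 and 14.99 RPM in the normal corneas, 3.46, 11.2 and 9.90 in the isografts and 3.73, 3.45 and 4.63 in the allografts. It fell in allografts (log2 fold change -1.149, SE 0.39, limma adjusted p = 0.0176), and normal 56 was its highest library as well. Of the miRNAs from other imprinted genes 1 could be tested, miR-335 of Mest, with a difference of -0.10 in allografts (adjusted p = 0.874). The 9 stromal and fibroblast markers, all detected, summed to between 10813 and 12861 RPM in normal corneas, between 19755 and 40202 in isografts and between 13517 and 25150 in allografts, and 5 of 9 rose in allografts against normal corneas and 6 of 9 in isografts. Among them miR-143-3p rose by 2.46 in allografts, while miR-199a-3p stood at -0.20 (adjusted p = 0.683). In allografts against isografts 3 of these 9 markers were lower and 0 higher (limma, adjusted p under 0.05), with a median of -0.90. The 3 were miR-145-5p (-1.35), miR-152-3p (-1.02) and miR-199a-3p (-0.94). The median of the 28 miRNAs of the locus in that comparison was -1.17. The difference between these markers and the locus was not tested.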

How the data were processed

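The deposited table holds RPM values computed by the authors for 765 mature miRNAs in 9 libraries, with 0 columns that lack a sample. Per the labels' protocols, total RNA was isolated with Trizol and made into libraries with a TruSeq small RNA kit. The tools bcl2fastq and BWA and the build rn6 are named per the submitters' processing notes; their versions, any trimming, the annotation and the treatment of multiply matching reads are not stated there. The denominator also holds reads outside the listed miRNAs, so RPM moves with them.

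RPM moved in steps of 1 read, and 100% of values gave whole reads within 0.1 read. Levels were fitted as log2(RPM + 1) for the 281 miRNAs that reached 5 RPM in 3 or more libraries, all 9 libraries in 1 model without covariates (limma 3.58.1 with a mean-variance trend, R 4.3.3), with Benjamini-Hochberg adjustment over the 281 and a threshold of 0.05. Fold changes on this scale understate the change of scarce miRNAs. Of the 281, edgeR 4.0.16 on whole reads called 114 for isografts and 194 for allografts, both set against normal corneas, and 165 between the grafts; DESeq2 1.42.0 called 119, 195 and 171.

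Values of every library are given for the 8 most abundant miRNAs of the locus, up to 6 of the largest changes per comparison and direction past the threshold, the 3 smallest differences between allografts and normal corneas, and both arms of hairpins with both arms tested. miR-300-3p, miR-431, miR-485-5p, miR-668 and miR-1193-3p were chosen after their values were seen. The miRNAs, lists and rules were chosen with earlier results of these data known. Alternatives were other pseudocounts, limits on low values, scalings, variance models, group subsets, a replicate block, libraries left out and count tests; the limit on the mean over all libraries was added after seeing the data.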

Additional observations from a re-analysis of the deposited data

How the results depend on the processing

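No miRNA called in a comparison changed direction in any alternative. For allografts against normal corneas the median of the members was -0.95 with a pseudocount of 5 RPM, -0.62 without a limit on low values, -1.81 with RPM computed without miR-184 and -0.72 on the sum of the listed miRNAs, where the median of all miRNAs was -0.14 in the reported analysis and -0.13, 0, -0.56 and 0.54 in these. For allografts against isografts it was -0.87, -0.55 and -0.78 with that pseudocount, without a limit and on the listed sum. On the listed sum, 16 members fell against normal corneas and 15 against isografts, while over all miRNAs the split against normal corneas went from 68 lower and 65 higher to 44 and 142 (104 and 51 without miR-184). The split over all miRNAs went from 59 lower and 38 higher to 55 and 86 on the listed sum for allografts against isografts, and from 13 and 47 to 49 and 66 with the median of ratios, 45 and 69 with edgeR, 51 and 68 with DESeq2 and 22 and 38 without miR-184 for isografts against normal corneas. For isografts against normal corneas it was 15 and 107 on the listed sum. The ratio of the summed level was 0.547 (allograft to normal) and 0.533 (allograft to isograft) on that sum. With a limit of 50 RPM, 6 members could be tested, of which 6, 5 and 0 were called (allograft against normal, allograft against isograft, isograft against normal), where 33, 29 and 3 of all 152 were lower, and without a limit 26 of 78 were lower in allografts than in isografts, against 67 of 606; fewer or more miRNAs tested is part of how these 2 settings are built. For isografts against normal corneas 0 members were called with a limit on the mean over all libraries, which drops miR-381-3p, 7 with the median of ratios, 3 without miR-184, 3 on the listed sum, 7 with edgeR and 8 with DESeq2; the cause was not tested. Leaving out 1 library gave 0 to 1 calls for isografts against normal corneas. It gave 15 to 27 for allografts against normal corneas and 9 to 26 for allografts against isografts. In the same order, the share of all 281 called lower ran from 2.14% to 5.69%, from 16.4% to 31.3% and from 7.12% to 40.6%. The medians ran from -0.35 to 0.12, from -1.54 to -1.14 and from -1.24 to -1.03. The ratios of the sum ran from 0.728 to 1.04, from 0.296 to 0.424 and from 0.378 to 0.444. The number in the title as a replicate block gave 1, 22 and 17 calls, all lower, where 6.05%, 26% and 24.2% of all 281 were called lower. Over all miRNAs tested, deviations of libraries of the same number had correlations from -0.514 to 0.557. Over the 28, library 56 was the highest of its group for 28 (normal), 18 (isograft) and 19 (allograft), which was not counted over all miRNAs tested. What the number stands for is not stated, and 3 libraries a group are too few to show whether it marks a shared source.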
